A study of Mus musculus with 54 samples.

Results

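The comparison of early with late night in the mouse suprachiasmatic nucleus (SCN), the master circadian pacemaker of the hypothalamus, took the 3 replicates collected at ZT14 and the 3 collected at ZT22, where ZT counts hours from lights on. The members were chosen by timepoint alone. They hold 18 of the 54 sequenced lane samples, which make 6 of the 18 replicates, and 18941 genes read at least once in more than 6 of the 18 replicates were tested. Both groups were wild-type male C3H/HeH mice of 10 to 12 weeks under 12 hr of light at 150 lux and 12 hr of dark, so ZT14 lies 2 hr and ZT22 10 hr into the dark. The labels name no light pulse. Each replicate was RNA from laser-captured SCN pooled from 5 mice, so variation between single mice was not measured. A difference below is log2(ZT14) minus log2(ZT22) from edgeR's quasi-likelihood test on read counts, with its standard error (SE). Levels are CPM, counts scaled to each library's total after TMM normalization, and q is the Benjamini-Hochberg adjusted p over all 18941 genes. A gene was called where q was below 0.05.

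A light pulse in early night delays the clock and one in late night advances it, which is why these hours are compared. Light reaches the SCN through retinal axons that release glutamate and PACAP. NMDA receptors, calcium, nitric oxide and kinases then act on CREB, a transcription factor that induces *Per1* and *Per2*. The clock itself is a loop in which CLOCK and BMAL1 (*Arntl*) bind E-boxes to drive the *Per* and *Cry* genes, whose proteins inhibit CLOCK and BMAL1, while DBP, TEF and HLF act through D-boxes. In the SCN *Per* transcripts are known to peak in the day.

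The sites by which these factors act were looked for in RefSeq promoter windows (GRCm38.p6), from 250 bases before to 50 bases after each annotated start. An E-box was read as CACGTG, a cAMP response element (CRE) as TGACGTCA and a D-box as TTATGTAA, on both strands. Windows were matched for 19 of the 23 core clock genes. Of these 19, 5 held an E-box (26.3%), against 10.8% of all 12419 matched genes, 1 held a CRE (5.26%, against 3.16%) and 1 a D-box (5.26%, against 0.829%). Among genes called higher at ZT14 12.2% held an E-box, and among genes called lower 10.0% did. The stretches around the motif are given for clock genes described below, with those of *Avp* and *Prok2*, which were added after their values were seen. Capitals mark the motif.
Per1 E-box, chr11:69098765-69098806, plus strand: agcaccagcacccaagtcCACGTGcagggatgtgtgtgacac
Cry1 E-box, chr10:85185091-85185132, minus strand: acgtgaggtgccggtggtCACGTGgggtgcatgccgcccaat
Bhlhe41 E-box, chr6:145865550-145865591, minus strand: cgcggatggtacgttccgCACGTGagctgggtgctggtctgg
Tef E-box, chr15:81802528-81802569, plus strand: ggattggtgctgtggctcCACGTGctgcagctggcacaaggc
Per3 D-box, chr4:151044845-151044888, minus strand: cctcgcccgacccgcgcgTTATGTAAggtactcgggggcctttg
Hlf CRE, chr11:90390918-90390944, minus strand: ggcgcgcggtgcgggcccTGACGTCAc
Avp E-box, chr2:130582704-130582745, minus strand: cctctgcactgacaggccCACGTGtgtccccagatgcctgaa
Prok2 E-box, chr6:99726504-99726545, minus strand: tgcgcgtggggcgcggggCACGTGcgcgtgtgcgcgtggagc
A match describes these letters only. *Per2*, *Bhlhe40* and *Csnk1d* were among those with no window to search.

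The ZT14 replicates held 32549849 to 35820945 counted reads and the ZT22 replicates 27284642 to 27991657. All 12 SCN neuron markers passed the filter, and their summed level was 2294 to 3061 CPM at ZT14 and 3082 to 3790 CPM at ZT22. *Vip*, described below, made up a large part of both sums. Of the 12 markers 2 were called higher and 2 lower (16.7% and 16.7%, against 12.5% and 6.62% of all tested genes). The difference was above 0 in 6 of them, and the median was -0.08. Of 12 markers of neighbouring hypothalamic nuclei that passed, edgeR called none (0% and 0%, against 12.5% and 6.62% of all tested genes). At an unadjusted p below 0.05 edgeR gave 2 higher and 0 lower, and DESeq2 called 2 higher. Their sums were 152 to 211 CPM at ZT14 and 154 to 255 CPM at ZT22. *Kiss1*, *Th*, *Otp* and *Nr5a1*, 4 further markers of those nuclei, did not pass the filter.

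Early and late night differed widely. Between ZT14 and ZT22 3625 of 18941 genes were called (19.1%), of which 2372 were higher (12.5% of all tested) and 1253 lower at ZT14 (6.62%). At an unadjusted p below 0.05 there were 5792. Among called genes the median difference was 1.69 for those higher and -0.82 for those lower, and 2014 of the higher genes but 341 of the lower ones differed by at least 1 on the log2 scale. The 6 replicates did not overlap for 3606 of the 3625 called genes, against 9046 of all tested genes (47.8%). The split by direction depended on the scaling. Upper-quartile normalization called 1974 higher and 2066 lower, and moved the median difference of all genes from 0.03 to -0.16. Without ZT22 replicate B the count was 2340. Each list's shares of higher and lower genes are set against the 12.5% and 6.62% of all tested genes. Those shares are edgeR's, and the other fits had other totals over the same 18941 genes. DESeq2's Wald test called 2592 higher and 2118 lower, and the fit with GC offsets, described below, 1578 and 1160. List counts from DESeq2, upper-quartile normalization or the GC offsets stand against these totals, and a shift shared with all genes is not a trait of a list.

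In the study's principal component plot, which was drawn by timepoint and sequencing batch, ZT14 lay with ZT18 and ZT22 with ZT2. ZT14 and ZT22 share no such cluster, so no value within a batch can be had, and time of night and a batch that went with those clusters cannot be told apart. The same pair of clusters was therefore set against itself in other replicates, as ZT18 minus ZT2, which shares no replicate with ZT14 minus ZT22. In that contrast 4170 genes were called (22.0%). In both contrasts 2539 genes were called in the same direction, 70.0% of the ZT14 and ZT22 calls and 60.9% of the ZT18 and ZT2 calls, and 4 were called in opposite directions. Another 1082 genes were called between ZT14 and ZT22 alone, which is not a test that they behaved otherwise.

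**Figure D1:**
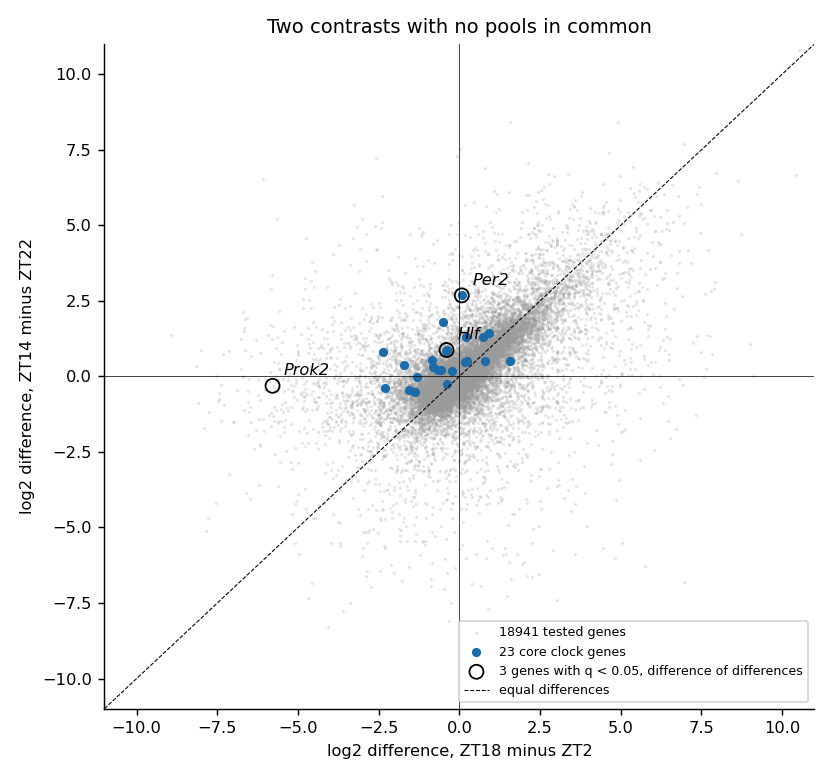
Each grey point is one of 18941 tested genes, with its ZT18 minus ZT2 difference on the horizontal and its ZT14 minus ZT22 difference on the vertical axis, both log2. The cloud runs along the dashed line of equal differences, while the 23 core clock genes (blue) lie mostly above it and *Per2*, *Hlf* and *Prok2* (circled) passed the test of the difference between the contrasts.

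The GC content of a gene's exons moved with the difference. In the decile of genes with the lowest GC (20.6% to 42.2%) 4.81% were called higher and 9.72% lower at ZT14, with a median of -0.32. In the decile with the highest GC (57.7% to 76.3%) 36.3% were called higher and 0.641% lower, with a median of 1.24. Between ZT18 and ZT2 the medians of the same deciles were -0.30 and 1.27, so the gradient was present in both contrasts, and the median difference between the contrasts was -0.02 and -0.05. With offsets for GC and exon length in the fit, 1578 genes were called higher and 1160 lower. The part of GC-dependent recovery in any single difference was not tested, and where the offsets ended the call of a named gene the difference with them is given.

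**Figure D2:**
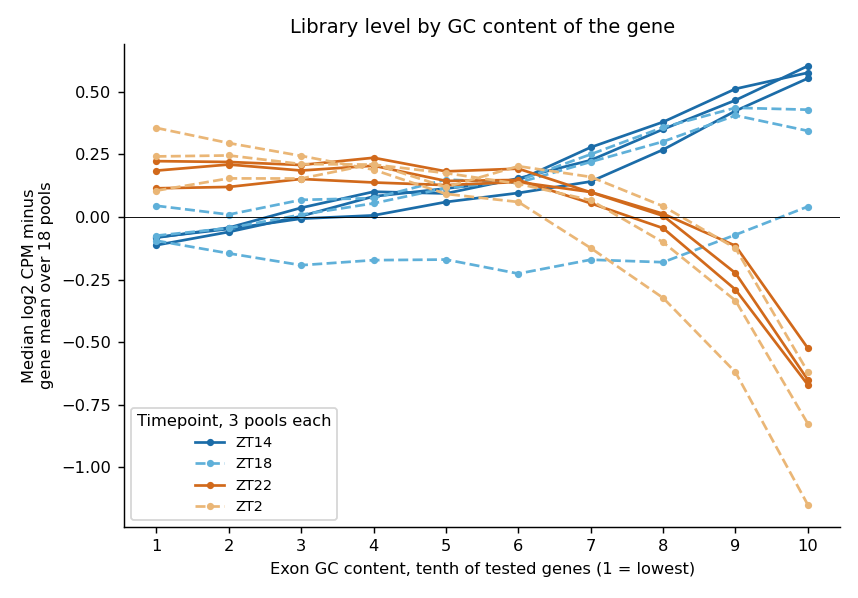
Lines are single replicates, 3 per timepoint, over deciles of the tested genes by exon GC content on the horizontal axis. The vertical axis is the median of log2 CPM minus the gene's mean over the 18 replicates, and in the highest decile the ZT14 replicates sit between 0.55 and 0.60 and the ZT22 replicates between -0.67 and -0.52.

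The largest differences joined genes of unlike function. *Gadd45g*, a stress-inducible growth arrest gene, was read at 253, 193 and 156 CPM in the ZT14 replicates and at 5.33, 2.46 and 3.30 CPM at ZT22, a difference of 5.76 (SE 0.41, q = 3.4e-08). *Flywch1*, a zinc-finger gene, stood at 123, 78.8 and 94.1 CPM against 1.30, 1.10 and 1.58 CPM, a difference of 6.21 (SE 0.57, q = 6.2e-07). In both genes the lowest ZT14 replicate lay far above the highest ZT22 replicate, and between ZT18 and ZT2 they differed by 5.53 (SE 0.41, q = 3.2e-08) and 5.82 (SE 0.56, q = 8.3e-07). *Mib2*, a ubiquitin ligase of Notch signalling, differed by 5.45, *Yjefn3* by 5.40, *mt-Tq*, a mitochondrial glutamine tRNA, by 5.30 and *Rex1bd* by 5.07. The exons of *Yjefn3* overlap *Tssk6* and those of *mt-Tq* overlap *mt-Ti*, so their reads may be shared.

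A further 4 genes were taken for their small p. *Cox6a1*, a subunit of cytochrome oxidase, was at 1002 ± 44.7 CPM (SD, n = 3) and at 47.6 ± 6.67 CPM (SD, n = 3), a difference of 4.396 (SE 0.21, q = 7.4e-10). *Alkbh6*, *Pcsk1n*, which encodes proSAAS and overlaps *Eras*, and *Mrpl54*, a mitochondrial ribosomal protein, differed by 5.04, 3.61 and 3.47. Exon GC was 57.3% or more in 3 of these 4 genes and 55.6% in *Alkbh6*.

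Differences in the other direction were smaller. *Fabp7*, the fatty acid binding protein of astrocytes and radial glia, was at 29.4, 53.9 and 40.4 CPM at ZT14 and 171, 181 and 162 CPM at ZT22, a difference of -2.05 (SE 0.21, q = 1.9e-06). *Eef1a1*, a translation elongation factor, was at 1830.0 ± 92.1 CPM (SD, n = 3) against 4480.3 ± 89.5 CPM (SD, n = 3), and *Rab5b*, a GTPase of early endosomes, at 73.7 ± 11.7 CPM (SD, n = 3) against 199.9 ± 13.7 CPM (SD, n = 3). Every ZT22 replicate of the 3 genes was above every ZT14 replicate. *Rps27* (-1.997) and *Rpl6* (-1.54) encode ribosomal proteins, and *Rpl17-ps8*, *Rpl10-ps6* and *Rpl21-ps15* (-2.36, -2.12 and -1.69) are ribosomal pseudogenes whose reads cannot be parted with certainty from those of their parent genes. *Nts*, the neuropeptide neurotensin, and *Qrfpr*, the receptor of the peptide QRFP, were among the 6 largest. *Nts* was at 2.45, 3.57 and 1.24 CPM and 11.1, 11.8 and 7.63 CPM and *Qrfpr* at 3.77, 5.40 and 5.17 CPM and 25.3, 22.9 and 18.3 CPM. Both calls ended with the GC offsets (-1.58, q = 0.072 and -1.84, q = 0.086). *Nts* also lost its call without ZT14 replicate A, ZT14 replicate C or ZT22 replicate B (q up to 0.086), and *Qrfpr* without any 1 of the 6 replicates (q up to 0.11).

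**Figure D3:**
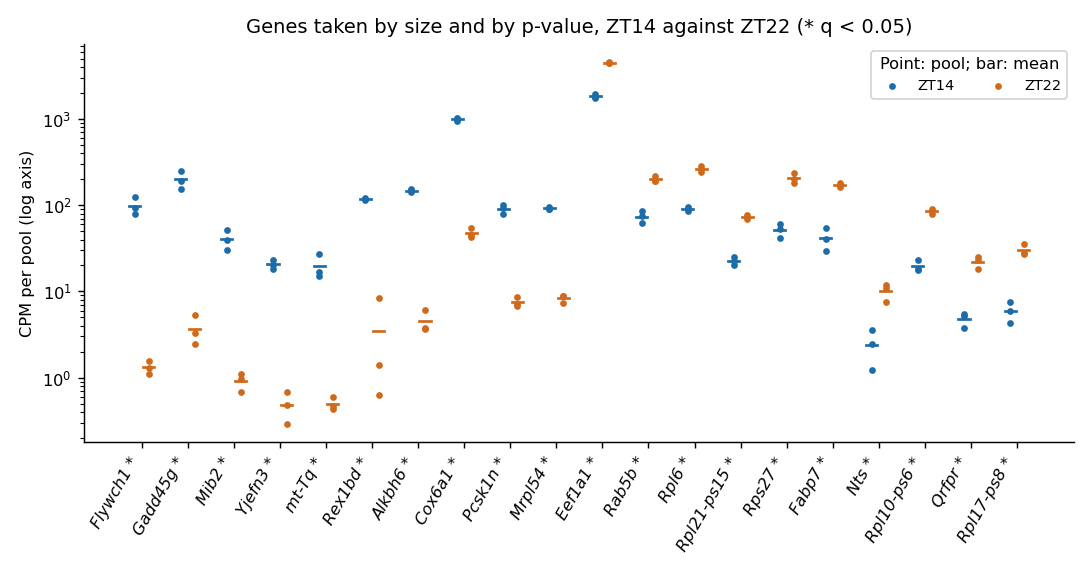
CPM of each replicate (points) and their mean (bars) on a log axis, for the 20 genes taken by size of difference or by p-value, ordered by difference. ZT14 (blue) and ZT22 (orange) replicates do not overlap in any of the 20, which the choice of genes required.

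Among the 23 core clock genes 6 were higher at ZT14, none was lower and 17 did not pass (26.1% and 0%, against 12.5% and 6.62%), with a median difference of 0.50 against 0.03 for all genes. At an unadjusted p below 0.05 edgeR gave 8 higher and 0 lower, and DESeq2 called 6 and 0. *Per2* (GRCm38, chr1:91415982-91459324, minus strand), whose protein inhibits CLOCK and BMAL1, was read at 73.0, 59.6 and 76.0 CPM at ZT14 and at 6.88, 14.9 and 10.8 CPM at ZT22. The groups were wide apart, and the difference was 2.68 (SE 0.30, q = 6.2e-06). *Per1* (chr11:69095217-69109960, plus strand), the *Per* gene with the E-box shown above, was at 29.1, 33.0 and 31.0 CPM and 8.99, 8.78 and 9.17 CPM, a difference of 1.79 (SE 0.29, q = 0.00029). Its replicates hardly varied within a timepoint, but with the GC offsets the difference was 0.49 (q = 0.25). *Per3* (chr4:151003652-151044665, minus strand), with D-boxes in its window, was at 44.5, 37.7 and 51.9 CPM and 19.1, 18.3 and 16.7 CPM, a difference of 1.31 (SE 0.37, q = 0.017). That call was lost without ZT14 replicate C, ZT22 replicate B or ZT22 replicate C (q up to 0.067).

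*Cry2* (chr2:92403646-92434043, minus strand), a partner of the PER proteins, was at 127, 121 and 136 CPM at ZT14 and 43.2, 57.2 and 54.0 CPM at ZT22, a difference of 1.32 (SE 0.30, q = 0.0048). *Hlf* (chr11:90336536-90390895, minus strand), the D-box factor with the CRE shown above, was at 219, 184 and 207 CPM and 109, 119 and 105 CPM, a difference of 0.87 (SE 0.14, q = 0.00027). For both genes the ZT14 replicates were all higher. *Npas2*, a paralog of *Clock*, was the lowest of the 6, at 10.1, 10.8 and 9.84 CPM and 4.13, 2.35 and 4.73 CPM. Its call (1.45 (SE 0.49, q = 0.045)) was the least stable, and was lost in 11 of the 18 fits without 1 replicate (q up to 0.18, without ZT22 replicate B) and with the GC offsets (1.17, q = 0.13).

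The activators of the loop were not called. *Clock* was at 69.5 ± 8.51 CPM (SD, n = 3) and 61.3 ± 5.88 CPM (SD, n = 3), and *Arntl* at 51.9 ± 17.9 CPM (SD, n = 3) and 36.8 ± 9.36 CPM (SD, n = 3), with overlapping replicates. *Cry1*, *Ciart* and *Bhlhe41*, a repressor set with E-boxes in their windows, did not pass either, with differences of 0.50, 0.81 and 0.37. Their replicates did not overlap, nor did those of 47.8% of all tested genes. *Nr1d1*, which encodes REV-ERBα, varied most within a timepoint, at 376, 35.0 and 164 CPM at ZT22 against 203, 141 and 217 CPM at ZT14, and its difference of -0.04 was 0.91 without ZT22 replicate A. Its exons overlap *Thra*. *Dbp*, the D-box factor whose exons overlap *Sphk2*, differed by -0.37 (SE 0.24, q = 0.33), and with the GC offsets it was called lower. The offsets thus left 4 clock genes higher (*Per2*, *Per3*, *Cry2* and *Hlf*) and 1 lower, and upper-quartile normalization 5 higher and 1 lower (*Rorb*).

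**Figure D4:**
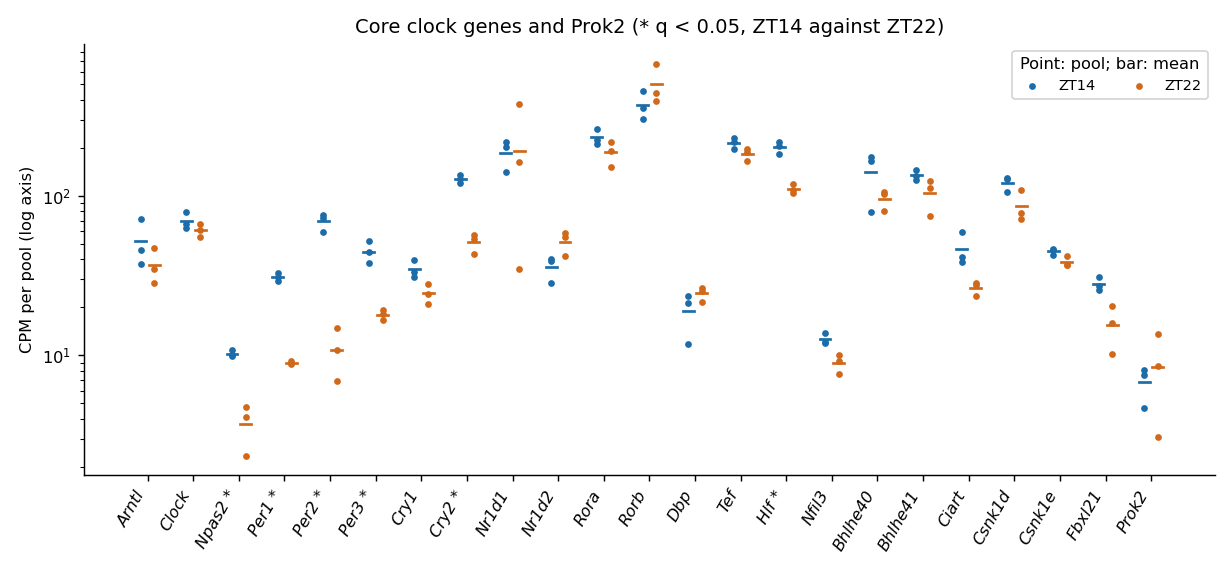
CPM of each replicate (points) and their mean (bars) on a log axis at ZT14 (blue) and ZT22 (orange), for 22 of the 23 core clock genes and *Prok2*. Stars mark the 6 genes with q below 0.05, and *Per2* spans 59.6 to 76.0 CPM at ZT14 but 6.88 to 14.9 CPM at ZT22.

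The next test asked whether the ZT14 to ZT22 difference departed from the ZT18 to ZT2 difference. It called 3 of 18941 genes (0.0158%) with edgeR, against 1299 at an unadjusted p below 0.05, and DESeq2's Wald test called 95. *Prok2* (chr6:99711299-99726392, minus strand), a secreted peptide and clock output of the SCN, was at 8.14, 7.52 and 4.70 CPM at ZT14 and 3.08, 8.56 and 13.6 CPM at ZT22, which overlap. At ZT18 it was at 1.79, 3.69 and 1.28 CPM and at ZT2 at 77.1, 168 and 139 CPM. Its level was thus high at ZT2 alone among these 4 timepoints, and the contrasts differed by 5.48 (SE 0.69, q = 0.0066).

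*Per2* stood the other way round, with replicates apart at ZT14 and ZT22 and a ZT18 minus ZT2 difference of 0.07 (SE 0.28, q = 0.89). At ZT18 it was at 25.8, 26.7 and 30.9 CPM and at ZT2 at 24.4, 25.8 and 29.0 CPM, between the levels of late and early night. Its contrasts differed by 2.61 (SE 0.41, q = 0.04). *Hlf* was at 143, 119 and 108 CPM at ZT18 and 153, 169 and 165 CPM at ZT2, and its contrasts differed by 1.27 (SE 0.20, q = 0.04).

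The 3 calls depended on the libraries fitted. Fitted to the libraries of the 4 timepoints alone, no gene passed (1569 at an unadjusted p below 0.05). With 1 replicate removed at a time *Prok2* passed in all 18 fits, whereas *Per2* was lost in 13 of them (q up to 0.2) and *Hlf* in 15 (q up to 0.21), in both most of all without ZT14 replicate A. With the GC offsets *Prok2* differed by 5.72 (q = 0.0035), *Per2* by 2.44 (q = 0.064) and *Hlf* by 1.14 (q = 0.064).

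Short of the threshold, a further 20 genes had q below 0.1 in that test, 3 of them core clock genes. These were *Dbp* (1.93 (SE 0.34, q = 0.071)), *Per1* (2.29 (SE 0.41, q = 0.071)) and *Bhlhe41* (2.08 (SE 0.39, q = 0.071)). In the other direction *Dmrtb1* (-2.66 (SE 0.49, q = 0.071)), a DM-domain gene, was at 6.34 ± 1.18 CPM (SD, n = 3) at ZT14 and at 20.7 ± 4.65 CPM (SD, n = 3) at ZT18. *Pkib* (-1.52 (SE 0.28, q = 0.071)), which encodes an inhibitor of protein kinase A, *Nudt2* (-1.16 (SE 0.23, q = 0.09)), a hydrolase of diadenosine tetraphosphate, and *Mrpl41* (-0.94 (SE 0.21, q = 0.19)) were the next by p, none of which passed.

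Of the light-input path, immediate early genes, which neurons switch on within minutes of a stimulus, had the highest median of the 30 lists, 0.89 over 20 genes, with 4 higher and 1 lower (20% and 5%, against 12.5% and 6.62%) and 15 not passing. *Arc*, which encodes a synaptic protein, was at 298, 94.8 and 235 CPM at ZT14 and 8.19, 6.94 and 8.53 CPM at ZT22, a difference of 4.73 (SE 0.57, q = 1.3e-05). *Junb*, which shares exon sequence with *Prdx2*, was low throughout, at 2.48, 4.59 and 7.09 CPM and 0.507, 0.220 and 0.287 CPM, a difference of 3.78 (SE 0.58, q = 0.00015). *Nr4a1* (2.32) and *Jund* (1.01) were also higher, *Jund* with a difference of opposite sign with the GC offsets (-0.39), and *Btg2*, an antiproliferative gene, was lower (-0.89 (SE 0.24, q = 0.014)). With the GC offsets the median was 0.27, and *Btg2* lost its call without ZT14 replicate B or ZT22 replicate C (q up to 0.074).

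Of 22 glutamate receptor genes 2 were higher and 1 lower (9.09% and 4.55%, against 12.5% and 6.62%), with a median of 0.37, and with the GC offsets 1 was higher and 2 lower. *Grin1*, the subunit that every NMDA receptor needs, was at 97.1, 85.3 and 87.9 CPM at ZT14 and 7.65, 6.54 and 11.04 CPM at ZT22, a difference of 3.42 (SE 0.27, q = 1.1e-07). Its exons overlap the antisense *Grin1os*. The subunits *Grin2a* and *Grin2b*, which set the properties of the receptor, were not called, at 1.16 (SE 0.92, q = 0.45) and -0.51 (SE 0.29, q = 0.24). *Gria2*, the AMPA receptor subunit that limits calcium entry, was lower (-0.75 (SE 0.20, q = 0.012)), and *Grik3*, a kainate receptor, higher (0.90 (SE 0.26, q = 0.023)). Both were lost without ZT22 replicate B or ZT22 replicate C (q up to 0.06 and 0.11), and *Grik3* also without ZT14 replicate B and with the GC offsets (0.43, q = 0.28).

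Calcium store and channel genes numbered 4 higher and 1 lower of 26 (15.4% and 3.85%, against 12.5% and 6.62%), with a median of 0.33 that the GC offsets turned to -0.04, when edgeR called 0 higher (2 at an unadjusted p below 0.05) and 1 lower. DESeq2, without the offsets, called 4 higher and 1 lower. *Cacna1g*, a T-type channel, was at 29.8 ± 6.83 CPM (SD, n = 3) and 9.75 ± 1.32 CPM (SD, n = 3) (1.61 (SE 0.25, q = 0.00019)), and the channel subunit *Cacnb3* differed by 1.58. Both calls ended with the GC offsets (0.32, q = 0.42 and 0.31, q = 0.36). *Cacna2d3* was lower (-0.78), a call lost without ZT14 replicate B or C or ZT22 replicate B or C (q up to 0.1). *Ryr2*, the ryanodine receptor that releases stored calcium, was at 39.0, 33.8 and 41.4 CPM and 21.7, 66.5 and 62.5 CPM and not called (-0.40 (SE 0.37, q = 0.53)).

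In the nitric oxide and cGMP list 5 of 17 tested genes were higher and 2 lower (29.4% and 11.8%, against 12.5% and 6.62%), with a median of 0.31, and with the GC offsets 2 were higher and 1 lower. *Nos1*, the neuronal nitric oxide synthase, was at 52.4 ± 6.33 CPM (SD, n = 3) and 44.9 ± 12.6 CPM (SD, n = 3), and *Prkg1*, a cGMP-dependent kinase, at 1.90 ± 1.27 CPM (SD, n = 3) and 0.664 ± 0.132 CPM (SD, n = 3), neither of them called. *Gucy1a2*, a guanylate cyclase subunit, was higher (1.28 (SE 0.32, q = 0.0094)), and so was *Pde1b*, a phosphodiesterase under calcium and calmodulin (2.14 (SE 0.31, q = 9.0e-05)). *Pde9a*, a cGMP phosphodiesterase, was at 20.0, 19.02 and 18.7 CPM at ZT14 and 57.3, 46.0 and 50.4 CPM at ZT22 (-1.41 (SE 0.23, q = 0.00025)). *Prkg2*, the second cGMP-dependent kinase, was lower (-0.71 (SE 0.23, q = 0.039)), a call lost without ZT14 replicate B or C, ZT22 replicate A or C (q up to 0.15) and with the GC offsets (-0.56, q = 0.13).

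Of 47 kinases and CREB partners 12 were higher and 4 lower (25.5% and 8.51%, against 12.5% and 6.62%), with a median of -0.01 that changed sign in several fits without 1 replicate (-0.12 to 0.13). With the GC offsets 8 were higher and 5 lower, and with upper-quartile normalization 9 and 8. *Crtc1*, a CREB coactivator that light acts on in the SCN, was at 160.4, 140.4 and 143 CPM at ZT14 and 4.64, 3.38 and 6.99 CPM at ZT22, a difference of 4.88 (SE 0.39, q = 1.3e-07). Between ZT18 and ZT2 *Crtc1* differed by 4.10 (q = 4.9e-07), and the difference between the contrasts was not called (0.78, q = 0.84). The phosphatase *Dusp6*, which acts on ERK, was at 73.2, 42.5 and 78.6 CPM and 13.4, 18.7 and 14.0 CPM (2.07 (SE 0.29, q = 6.6e-05)). *Rasd1* (2.68), a small GTPase of photic signalling, was higher too, whereas *Calm2*, which encodes calmodulin, was lower, at 2481 ± 127 CPM (SD, n = 3) against 4289 ± 809.6 CPM (SD, n = 3) (-0.79 (SE 0.18, q = 0.0055)). The call of *Calm2* ended with the GC offsets (-0.34, q = 0.16). *Prkacb*, a catalytic subunit of protein kinase A, was also lower (-0.73 (SE 0.19, q = 0.012)), a call lost without ZT14 replicate C or ZT22 replicate C (q up to 0.064). *Camk2a* was at 868, 896 and 1334 CPM and 264, 531 and 603 CPM (1.15 (SE 0.32, q = 0.016)), a call lost without ZT14 replicate C or ZT22 replicate A (q up to 0.083) and with the GC offsets (0.78, q = 0.11). *Creb1*, *Prkcb* and *Bdnf* were not called, with differences of -0.17, 0.27 and -0.48.

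Of the SCN's signalling peptides and their processing partners 6 were higher and 4 lower of 19 (31.6% and 21.1%, against 12.5% and 6.62%), with a median of 0.73, and with the GC offsets 6 were higher and 2 lower. *Avp*, the arginine vasopressin of the SCN shell, was at 56.2, 66.6 and 40.8 CPM at ZT14 and 8.81, 3.12 and 4.19 CPM at ZT22, a difference of 3.34 (SE 0.33, q = 1.8e-06), with the E-box shown above. Between ZT18 and ZT2 it differed by 1.03 (SE 0.31, q = 0.023). *Vip*, the vasoactive intestinal peptide of the SCN core, was lower at ZT14, at 1053, 1090.2 and 747 CPM against 1884, 1566 and 1504 CPM (-0.78 (SE 0.25, q = 0.035)). Its call was lost without any 1 of the 6 replicates (q up to 0.15) and with the GC offsets (-0.39, q = 0.25). In bulk tissue, fewer cells of a type and less RNA per cell cannot be told apart.

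*Nms*, neuromedin S, was at 102, 106 and 73.0 CPM at ZT14 and 228, 244 and 189 CPM at ZT22 (-1.23 (SE 0.20, q = 0.00022)), and the granin *Scg2* was also lower (-1.02 (SE 0.19, q = 0.001)). Another granin, *Chga*, went the other way, at 452, 265 and 273 CPM against 32.9, 20.9 and 19.6 CPM (3.75 (SE 0.35, q = 9.9e-07)). *Penk*, which encodes enkephalins, *Adcyap1*, which encodes PACAP, and *Grp*, gastrin-releasing peptide, were higher by 3.51, 2.96 and 1.66. *Nts* and *Pcsk1n* belong to the same list. Of the receptors for light input and peptides, 1 of 26 tested was higher (*Drd1*, 1.04 (SE 0.35, q = 0.042)) and 2 lower (3.85% and 7.69%, against 12.5% and 6.62%), the nociceptin receptor *Oprl1* (-0.91 (SE 0.21, q = 0.005)) and the neuropeptide Y receptor *Npy2r* (-2.38 (SE 0.78, q = 0.04)). *Drd1* was lost in 7 and *Npy2r* in 5 of the 18 fits without 1 replicate, most of all without ZT14 replicate B (q = 0.24) and ZT22 replicate B (q = 0.15). The call of *Npy2r* also ended with the GC offsets (-2.08, q = 0.084) and that of *Drd1* with upper-quartile normalization.

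GABA signalling, the transmitter system of nearly all SCN neurons, had 3 of 22 genes higher and 3 lower (13.6% and 13.6%, against 12.5% and 6.62%), but DESeq2 called 3 and 5. Of receptor subunits, *Gabrd* (3.33 (SE 0.67, q = 0.0017)) and *Gabrb1* (1.73 (SE 0.23, q = 3.0e-05), its exons overlapping *Gabra4*) were higher, and *Gabrg1* (-0.81 (SE 0.21, q = 0.011)) was lower. *Gabrd*, the subunit of extrasynaptic receptors, was at 57.7 ± 8.10 CPM (SD, n = 3) and 5.72 ± 1.54 CPM (SD, n = 3). Potassium channels had 4 of 39 tested genes higher and none lower with edgeR (10.3% and 0%, against 12.5% and 6.62%), with 2 lower at an unadjusted p below 0.05, and DESeq2 called 4 higher and 2 lower. The largest was *Kcnh3* (2.93 (SE 0.62, q = 0.0026), overlapping *Mcrs1*), whose call ended with the GC offsets (1.61, q = 0.083), beside *Kcnk1* (1.31 (SE 0.33, q = 0.0094)). With the GC offsets 1 was higher and 2 lower, and with upper-quartile normalization 2 were higher and 2 lower.

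Vesicle release genes had 4 of 32 higher and 7 lower (12.5% and 21.9%, against 12.5% and 6.62%). *Cplx1* and *Rab3a* were higher (1.68 (SE 0.35, q = 0.0025) and 2.03 (SE 0.36, q = 0.00065)), while *Synpr* and *Syn2* were lower (-1.08 (SE 0.20, q = 0.00081) and -0.67 (SE 0.14, q = 0.0023)), as was *Snap25* (-0.54). The call of *Snap25* was lost without ZT14 replicate A or B or ZT22 replicate B or C (q up to 0.18) and with the GC offsets (-0.32, q = 0.35). The median was 0.19, but -0.00 with upper-quartile normalization and -0.18 with the GC offsets. Among actin and small GTPase genes 12 of 55 tested were higher and 7 lower (21.8% and 12.7%, against 12.5% and 6.62%). The lower calls depended most on the processing, since upper-quartile normalization called 9 higher and 12 lower, DESeq2 11 and 12, and the GC offsets 10 and 1. *Rap1gap* (2.58 (SE 0.30, q = 9.9e-06)), an inhibitor of RAP1, and the cofilin kinase *Limk2* (1.32 (SE 0.24, q = 0.00082)) were higher, and *Cdc42* (-0.71 (SE 0.15, q = 0.0027)) and *Arpc3* (-0.82 (SE 0.19, q = 0.0062)), a subunit of the actin-nucleating ARP2/3 complex, lower. The call of *Cdc42* ended with the GC offsets (-0.33, q = 0.12).

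Cytosolic ribosomal proteins formed the list with the lowest median, -0.73 over 82 genes, with 51 lower at ZT14 (62.2%, against 6.62% of all genes), 4 higher (4.88%, against 12.5%) and 27 not passing. The median between ZT18 and ZT2 was -0.33. With the GC offsets 48 were lower and the median was again -0.73, and in the fits without 1 replicate it lay between -0.84 and -0.68. *Rpl6* was at 89.9, 95.7 and 86.7 CPM at ZT14 and 264, 286 and 242 CPM at ZT22 (-1.54 (SE 0.17, q = 3.9e-06)), and *Rpl23a*, overlapping *Tlcd1*, at 33.9 ± 4.63 CPM (SD, n = 3) and 117 ± 16.01 CPM (SD, n = 3). *Rpl13* went the other way, at 95.5, 116 and 86.7 CPM against 13.7, 14.3 and 13.7 CPM (2.84 (SE 0.24, q = 2.4e-07)), and *Rps4l* too (2.89). Members of this family have many processed copies in the genome, so their counts are uncertain where reads could fall on either.

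Proteasome subunits were lower in 16 of 30 tested and higher in 5 (53.3% and 16.7%, against 6.62% and 12.5%), with a median of -0.53. *Psma5* was at 97.8 ± 3.75 CPM (SD, n = 3) and 212 ± 7.44 CPM (SD, n = 3) (-1.12 (SE 0.16, q = 6.6e-05)) and *Psmb7* differed by -0.84. *Psmd8* and *Psmd6* were higher (2.67 (SE 0.27, q = 2.4e-06) and 1.99 (SE 0.24, q = 1.6e-05)). These genes were taken for the smallest p in each direction. With the GC offsets 8 were lower and 4 higher. Glycolysis had a median of -0.53 with 8 of 18 lower (44.4%, against 6.62%), among them *Pgk1* (-1.21 (SE 0.18, q = 0.00011)) and *Tpi1* (-0.92 (SE 0.17, q = 0.00094)), and 3 higher (16.7%, against 12.5%), among them *Hk1*, the first enzyme of the path (2.44 (SE 0.40, q = 0.00032)), and *Pgam1* (1.55 (SE 0.28, q = 0.00059)).

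Respiratory chain and ATP synthase subunits of nuclear origin were lower in 28 of 76 and higher in 13 (36.8% and 17.1%, against 6.62% and 12.5%), with a median of -0.36 where ZT18 minus ZT2 gave 0.19. *Cox7c* (-1.10 (SE 0.17, q = 0.00018)) and *Atp5h* (-0.95 (SE 0.16, q = 0.00038)) were lower, and *Cox8a* (3.08 (SE 0.21, q = 1.8e-08)) was higher, beside *Cox6a1*. Of 71 mitochondrial ribosomal proteins 22 were higher and 19 lower (31.0% and 26.8%, against 12.5% and 6.62%), and with the GC offsets 23 were higher and 12 lower and the median moved from -0.02 to 0.12. *Mrpl12* (3.19 (SE 0.19, q = 6.7e-09)) was among those higher and *Mrps33* (-1.18 (SE 0.17, q = 6.8e-05)) and *Mrpl23* (-1.31) among those lower. Of 8 mitochondrially encoded genes 3 were higher (37.5%, against 12.5%), *mt-Co2* (3.20), *mt-Co3* (2.66) and *mt-Nd3* (1.58), and *mt-Co2* was read at only 2.71, 4.15 and 3.30 CPM and 0.145, 0.514 and 0.430 CPM.

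Heat shock chaperones had 9 of 27 higher and 2 lower (33.3% and 7.41%, against 12.5% and 6.62%), but 5 and 4 with upper-quartile normalization and 10 and 4 with DESeq2. *Dnajb1*, a cochaperone of HSP70, was at 247, 187 and 202 CPM at ZT14 and 43.9, 28.5 and 34.9 CPM at ZT22 (2.57 (SE 0.21, q = 2.0e-07)), and *Hspa2* was also higher (2.20 (SE 0.24, q = 4.6e-06)). *Hsp90aa1* (-0.92 (SE 0.16, q = 0.00037)) and *Hsp90ab1* (-0.90 (SE 0.28, q = 0.029)) were lower, the latter lost without ZT14 replicate B or C or ZT22 replicate B or C (q up to 0.1). Of 22 cholesterol synthesis genes 6 were called in each direction (27.3% and 27.3%, against 12.5% and 6.62%), and 4 in each with the GC offsets. *Srebf2*, its transcriptional activator, was higher (1.74 (SE 0.20, q = 8.0e-06)), as was *Tm7sf2* (1.41), and *Fdps* (-1.59 (SE 0.24, q = 0.00015)) and *Pmvk* (-0.73) were lower. Of 64 splicing factors and hnRNP genes 12 were higher and 14 lower (18.8% and 21.9%, against 12.5% and 6.62%), whereas DESeq2 called 11 higher and 23 lower and the GC offsets gave 14 and 9, with a median of 0.00 in place of -0.13. They included *Snrpa* (3.33, overlapping *BC024978*) and *Snrpf* (3.32, overlapping *Ccdc38*) against *Hnrnpa1* (-1.39) and *Srsf5* (-1.29). None of the 4 nuclear long noncoding RNAs that passed the filter was called by edgeR or by DESeq2, nor had any an unadjusted p below 0.05 in either.

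**Figure D5:**
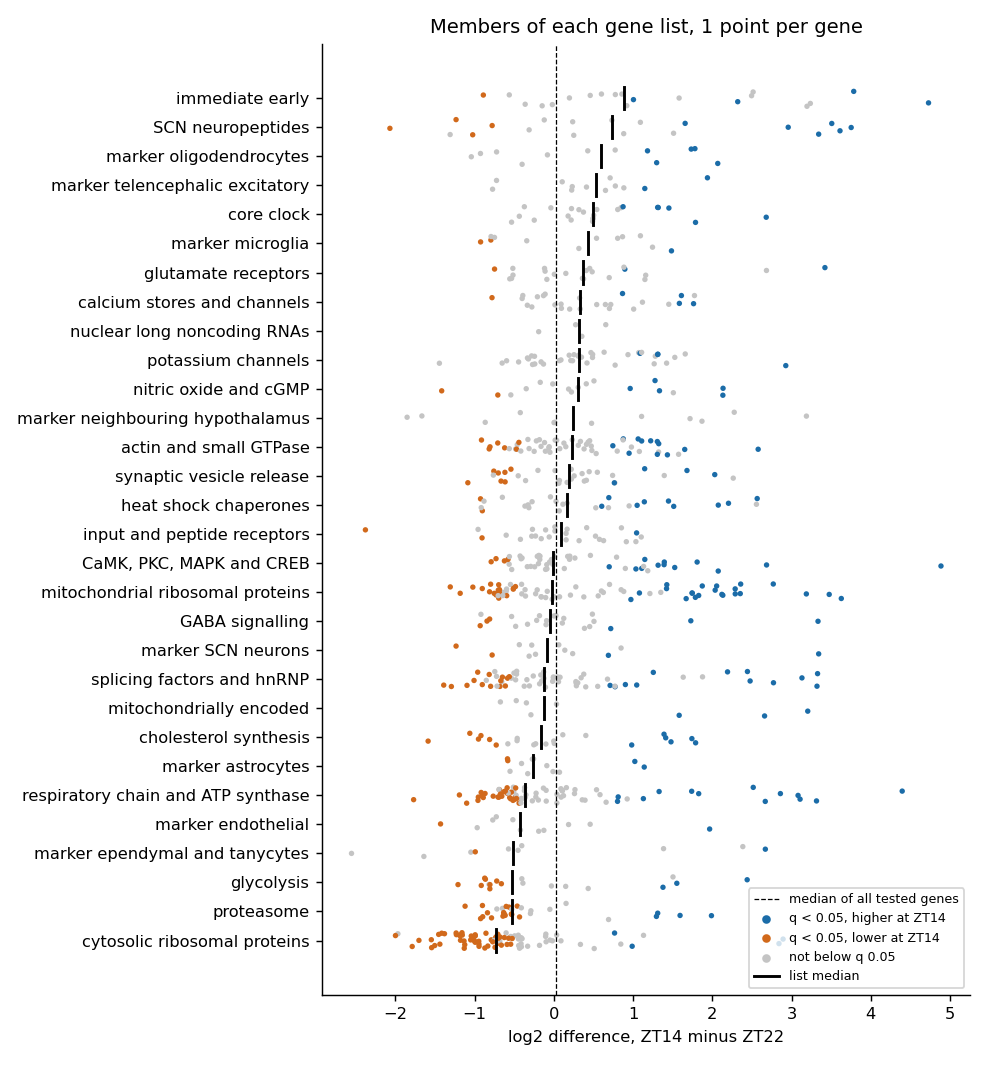
Each point is a gene of the list named on the vertical axis, placed by its ZT14 minus ZT22 log2 difference on the horizontal axis, coloured where q was below 0.05. Black bars are list medians, from -0.73 for cytosolic ribosomal proteins to 0.89 for immediate early genes, and the dashed line is the median of all tested genes (0.03).

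Markers of other cell types moved between the timepoints as well. Of 12 oligodendrocyte markers edgeR called 5 higher at ZT14 and none lower (2 lower at an unadjusted p below 0.05) and DESeq2 5 and 2 (41.7% and 0%, against 12.5% and 6.62% with edgeR), and their summed level was 4929 to 6131 CPM at ZT14 against 2347 to 3200 CPM at ZT22, with no overlap. *Mag* was at 58.4, 69.5 and 58.7 CPM and 18.7, 12.9 and 12.8 CPM (2.07 (SE 0.33, q = 0.00024)), and *Cldn11* differed by 1.30. The list did not move as one, since only 7 of the 12 oligodendrocyte markers had a difference above 0 and the lowest was -1.04. The 10 ependymal and tanycyte markers summed to 1195 to 1962 CPM against 367 to 427 CPM, but *Nnat*, neuronatin, which neurons also express, made up most of it, at 1566 ± 424 CPM (SD, n = 3) and 246 ± 20.9 CPM (SD, n = 3) (2.67 (SE 0.20, q = 7.7e-08)), while *Rarres2* was lower (-0.99 (SE 0.31, q = 0.031)), a call lost without any 1 of the 6 replicates but ZT14 replicate C (q up to 0.14, without ZT14 replicate A). Between ZT18 and ZT2 the sums of both lists were apart in the same direction. The part of these markers in the results above was not tested.

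Astrocyte markers summed to 3615 to 4816 CPM at ZT14 and 4692 to 5674 CPM at ZT22, with 2 of 12 higher (*Mlc1*, 1.02, and *Gfap*, 1.14) and 2 lower (*Slc1a3*, -0.58, and *Gja1*, -0.58), which makes 16.7% and 16.7%, against 12.5% and 6.62% of all genes. *Gfap* was lost without any 1 of the 6 replicates but ZT22 replicate A (q up to 0.16) and with the GC offsets (0.89, q = 0.075). *Gja1* was lost without ZT14 replicate A or B or ZT22 replicate B or C (q up to 0.12) and with the offsets (-0.53, q = 0.063), and *Slc1a3* without ZT14 replicate A or B or ZT22 replicate C (q up to 0.095). Of microglial markers 1 of 12 was higher (*Tmem119*) and 2 lower (*Ctss* and *Aif1*), which makes 8.33% and 16.7%, against 12.5% and 6.62% of all genes, with sums of 391 to 457 and 374 to 490 CPM, and DESeq2 called 2 higher and 4 lower. With the GC offsets these calls ended, at 0.29, q = 0.74 for *Tmem119*, -0.41, q = 0.15 for *Ctss* and -0.78, q = 0.11 for *Aif1*. *Tmem119* was also lost without any 1 of the 6 replicates but ZT14 replicate B (q up to 0.11), *Aif1* without any 1 but ZT14 replicate C (q up to 0.17) and *Ctss* without ZT14 replicate A or ZT22 replicate B (q up to 0.082). Endothelial markers gave 1 of 11 higher (*Cldn5*, 1.97) and 1 lower (*Pecam1*, -1.43), which makes 9.09% and 9.09%, against 12.5% and 6.62% of all genes, with sums of 314 to 331 and 394 to 473 CPM. The call of *Cldn5* ended with the GC offsets (0.76, q = 0.16). Telencephalic excitatory markers, chosen to check for tissue from outside the hypothalamus, had 2 of 12 higher, *Nrgn* (1.94) and *Camk2a* (16.7% and 0%, against 12.5% and 6.62%). Both calls were lost with the GC offsets (*Nrgn* at 0.84, q = 0.24). The sums were 1279 to 1993 CPM at ZT14 and 521 to 1211 CPM at ZT22, with 488 to 715 CPM at ZT18 and 503 to 624 CPM at ZT2. *Camk2a*, also listed with the kinases above, made up most of the level at ZT14. The sums therefore cannot part tissue from outside from a change in this gene. Gene by gene, the difference was above 0 in 10 of the 12 markers, with a median of 0.53, and of -0.28 with the GC offsets. Between ZT18 and ZT2 the median was -0.12. The part of tissue from outside in these differences was not tested. In the SCN neuron list itself *Avp* and *Six6* (0.69 (SE 0.23, q = 0.041)) were higher and *Vip* and *Nms* lower, which makes 16.7% and 16.7%, against 12.5% and 6.62%. *Six6* was lost in 7 of the 18 fits without 1 replicate, most of all without ZT22 replicate B (q = 0.18).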

How the data were processed

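RNA-seq read counts from laser-captured SCN were analysed at ZT14 and ZT22, 3 pools of 5 mice each, with the other 12 pools in the same fit. Per the labels and the study's methods, the authors amplified cDNA, trimmed the reads, used GSNAP for alignment to mm10 (GRCm38) and counted reads with HTSeq 0.5.4p1 on Ensembl genes plus their lincRNAs. The deposited count table holds whole-number counts for 30031 genes with lanes combined, and no column of sample values was left out (0 unused). A second deposited table holds normalized signal, counts divided by 1 size factor per pool, of which 100% of values came out as whole reads (tolerance 0.01 reads). At ZT2, ZT14, ZT18 and ZT22 the recovered reads equalled the counts for 93.3% to 94.9% of shared genes read in a pool. In the ZT6 and ZT10 pools they did so for only 8.76% to 12.2%, and why was not tested. The normalized table served as an alternative.

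Genes read at least once in more than 6 pools were fitted with edgeR 4.0.16 (R 4.3.3, TMM, quasi-likelihood test, Benjamini-Hochberg), and scripts were tested on simulated data. SE is the difference divided by the root of F. Symbols came from GENCODE (97.4% of identifiers matched) and GC and exon length for 98.8% of tested genes. Named genes were, per direction, the 6 largest called differences and the 4 smallest p among genes with a symbol, replicates that do not overlap and a mean of at least 10 CPM, then all clock genes, up to 2 per direction from each list, 10 genes of light resetting, and the 4 smallest p per direction of the difference between contrasts. *Nr4a1*, *Jund*, *Rasd1*, *Penk*, *Adcyap1*, *Grp*, *Snap25* and *mt-Nd3* were named beyond this rule, after their values were seen. Some genes that the rule names are not reported here. The members and lists were chosen with earlier results of these data known. Alternatives were DESeq2 1.42.0 and its size factors, upper-quartile normalization, other filters, a replicate block, thinned reads, offsets for each pool's trend on GC and exon length, and each pool left out. Pools of a timepoint differed beyond sampling noise, and the p-values measure the spread between pools.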

Additional observations from a re-analysis of the deposited data

Results flagged for a closer look

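*Prok2*, *Per2* and *Hlf* were picked out because their ZT14 minus ZT22 difference departed from their ZT18 minus ZT2 difference in edgeR's quasi-likelihood test of the difference itself, by 5.48, 2.61 and 1.27 on the log2 scale. The direction was the same in each of them, and *Per2* and *Hlf* lost their call in most fits without 1 replicate.

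A further 209 genes were called between ZT14 and ZT22 among 2171 genes tested that stand in the normalized table and not in the count table (9.63%), from reads recovered from that table. Of these 152 were higher and 57 lower at ZT14. The share was below that of all genes, since the fit to all recovered reads called 3620 of 20822 genes and the main fit 19.1% of tested genes. They took no part in the comparisons above.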

How the results depend on the processing

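Between ZT14 and ZT22 the count of called genes was 3625, with 2355 where a log2 difference of at least 1 was also asked and 6107 in a fit to the 6 libraries of the 2 timepoints alone, of which 3593 were among the 3625. Without 1 replicate it ranged from 2340 (without ZT22 replicate B) to 4287. DESeq2's Wald test called 4710, and the other fits between 2738 (GC and length offsets) and 4040 (upper-quartile normalization). Between ZT18 and ZT2 the count was 4170, but 2143 in a fit to those 2 timepoints alone, and 2875 to 4846 without 1 replicate. The difference between the contrasts was called for 3 genes, 95 with DESeq2's Wald test, 15 with no filter on low counts, 1 with GC and length offsets, 0 from the 4 timepoints alone (1569 at an unadjusted p below 0.05) and 1 to 9 without 1 replicate. Of 833 tested members of the 30 lists 334 were called, against 3625 of all 18941 tested genes, and 224 to 376 members without 1 replicate.

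The replicate letters gave correlations of deviations between ZT14 and ZT22 of 0.104, 0.0152 and 0.0643. Whether replicates of the same letter shared more than the letter was not tested. A replicate block called 3530 genes between ZT14 and ZT22, 3932 between ZT18 and ZT2 and 6 for the difference between the contrasts.

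Of 121 named genes called, 85 were called under each of the 28 other settings and *Rex1bd* under the 27 that gave it a value (DESeq2 gave it no adjusted p), 34 were lost under at least 1 and 1 changed sign (*Jund*, -0.39 with GC and length offsets). Calls also ended with no filter on low counts for *Gucy1a2*, *Grik3*, *Npas2* and *Six6*, and from the recovered reads for *Tm7sf2*, *Rarres2*, *Npas2* and *Npy2r*. Upper-quartile normalization ended those of *Drd1*, *Gfap*, *Grik3*, *Npas2*, *Six6* and *Tmem119*. Among named genes not called the sign changed for *Clock* (-0.0170) with upper-quartile normalization, for *Csnk1e* (-0.53), *Nos1* (-0.47) and *Tef* (-0.0232) with GC and length offsets, for *Nr1d1* with the replicate block (0.10) and without 1 replicate (0.13 and 0.91), and for *Creb1* without ZT22 replicate C (0.0247, its range without 1 replicate being -0.290 to 0.0247). Of 30 list medians 18 kept their sign under each setting. The causes were not tested. Genes read at a few CPM, such as *mt-Co2*, rest on fewer reads, and why their levels were low was not tested.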

Other observations

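Called genes differed by annotated class. Of 15108 protein-coding genes 13.4% were higher at ZT14 and 7.63% lower, and of 1914 processed pseudogenes 14.4% and 3.40%. Of 227 lincRNAs 4 were higher and 7 lower (1.76% and 3.08%, against 12.5% and 6.62% of all tested genes). Of 740 antisense genes 10 were higher and 6 lower (1.35% and 0.811%). Mitochondrial tRNA genes were called higher more often, with 10 of 16 higher and 1 lower (62.5% and 6.25%). What set the classes apart was not tested.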
